A study of Mus musculus with 30 samples.

Results

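The alpha and beta tubulin isotypes of the developing mouse cortex were followed in tissue with and without the transcription factor Tbr1. The family members considered were 4 alpha-tubulin genes (Tuba1a, Tuba1b, Tuba4a and Tuba8) and 6 beta-tubulin genes (Tubb2a, Tubb2b, Tubb3, Tubb4a, Tubb5 and Tubb6), 10 in all. A member was read by the probe set that named it and no other gene, and where several did, by the one with the highest mean signal in its table. By this rule 9 of the 10 had a probe set at both stages, among 16553 genes that did. The family was chosen by the measured KO and WT levels of Tuba4a at P0.5, which had stood out in these data, and the other isotypes were added as its relatives. Tuba1b was not read by a probe set of its own on either array type and has no value in the comparisons.

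Gene expression was measured on 30 microarrays of CD1 mice. KO samples were Tbr1 -/- animals from crosses of heterozygotes, and WT samples were wild type. Neocortex was taken at E14.5 (3 KO and 3 WT arrays), and frontal, parietal and occipital brain at P0.5, the day of birth (4 KO and 4 WT arrays per region, 24 in all). The labels do not say whether arrays of one group are separate animals, and the p-values therefore measure the spread between arrays. The labels also do not tie arrays of the 3 regions to animals. The null allele was inherited through the germline and was thus not limited to a cell type. Tissue was dissected whole, and fewer cells of a type cannot be told apart from less RNA per cell.

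Microtubules are hollow polymers of alpha-beta tubulin heterodimers and serve as tracks for axonal transport and as the scaffold of growing neurites and of the mitotic spindle. Mammals encode several near-identical isotypes of each chain, which differ mostly in their C-terminal tails, where enzymes add and remove tyrosine, glutamate and other groups. Tuba1a is the main alpha chain of young postmitotic neurons, Tubb3 is the beta chain used as a neuronal marker, and Tubb2b is needed for neuronal migration. Tuba4a is an alpha chain whose gene does not encode the C-terminal tyrosine that Tuba1a carries.

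Values were log2 signals per probe set as deposited, and the median signal of an array was 5.12 to 5.15 in the E14.5 table and 7.42 to 7.52 in the P0.5 table. The 2 stages were read on different array types and were not compared in level, and no isotype's level was compared with that of another. A difference of 1 on this scale is a doubling. Differences were fitted with limma, and a gene was called where its p, adjusted over all genes by the Benjamini-Hochberg method, was under 0.05. Tbr1 itself was lower in KO in each region of P0.5 tissue (KO arrays from 9.07 to 9.91, WT arrays from 9.73 to 10.6) and at E14.5 (from 7.23 to 8.69 in KO and from 8.89 to 9.36 in WT). No gene was called at E14.5, so even the Tbr1 difference did not pass there. The files do not give the position of the deletion relative to the probes. The 6 cortical excitatory neuron markers measured had a mean signal of 9.20 to 9.31 in the P0.5 groups, and of 7.85 in KO and 8.14 in WT at E14.5, so the markers of cortex were present in every group.

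Tuba4a was the isotype with a large difference at P0.5, and it was singled out for that difference, so its P0.5 values are a description without a test. In frontal tissue the 4 KO arrays read 9.77, 9.30, 9.49 and 9.70 (9.57 ± 0.21, SD, n = 4) and the 4 WT arrays 8.01, 7.95, 8.24 and 8.15 (8.09 ± 0.13). In parietal tissue the KO arrays read 9.53, 9.41, 9.39 and 9.24 (9.39 ± 0.12) and the WT arrays 8.46, 8.38, 7.87 and 8.17 (8.22 ± 0.26). In occipital tissue the KO arrays read 9.64, 9.28, 9.77 and 9.34 (9.51 ± 0.24) and the WT arrays 8.39, 8.17, 7.94 and 8.50 (8.25 ± 0.25). Every KO array lay above every WT array in all 3 regions. Groups that stood apart in this direction were found for 6.42% of all genes in frontal, 3.68% in parietal and 3.76% in occipital tissue. The KO minus WT difference was 1.48 in frontal tissue (2.79-fold, SE 0.133), 1.17 in parietal (2.25-fold) and 1.26 in occipital tissue (2.39-fold), with the same SE. Of 19938 genes, 10 had a larger increase in frontal, 7 in parietal and 1 in occipital tissue.

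**Figure D1:**
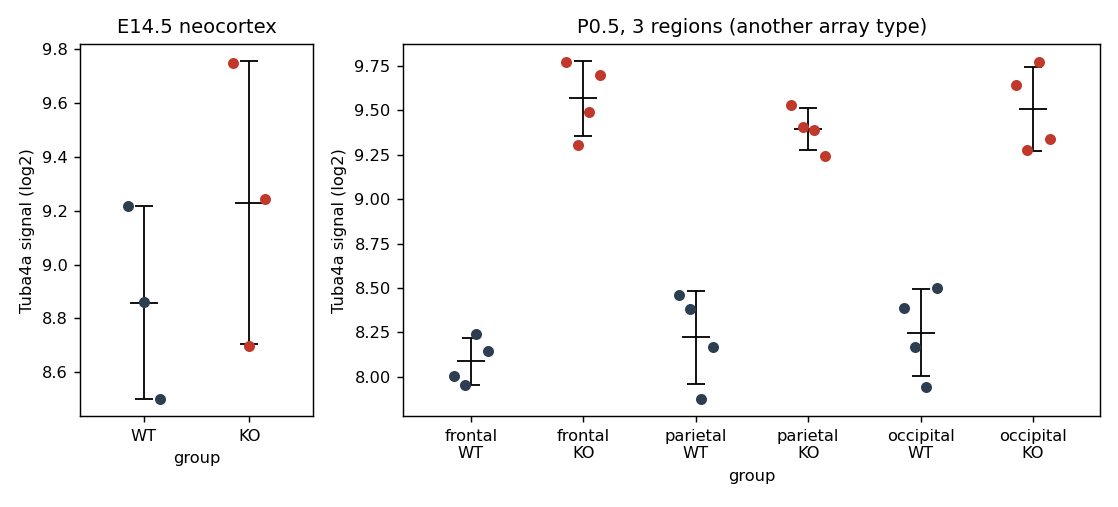
Tuba4a signal (log2, vertical axis) on each array, E14.5 neocortex on the left and the P0.5 regions on the right, with KO arrays in red, WT arrays in dark blue, and bars for mean ± SD. At P0.5 the KO arrays lie between 9.24 and 9.77 and the WT arrays between 7.87 and 8.50, while at E14.5 KO and WT arrays overlap.

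The 3 same-numbered arrays of each genotype were averaged, although the sex-linked signals below show that they are not always of the same animal. The 4 KO averages of Tuba4a had a mean of 9.49 ± 0.14 (SD) and the 4 WT averages one of 8.19 ± 0.12. KO exceeded WT by 1.30 (2.47-fold, SE 0.0729), and every KO value lay above every WT value, as for 7.21% of all genes. Only 5 of the 19938 genes had a larger increase by this measure. The other 8 isotypes measured differed between KO and WT by -0.13 to 0.24, with a median of 0.00045, against a median of -0.013 over all genes. Their ranges were -0.10 to 0.38 in frontal, -0.17 to 0.15 in parietal and -0.14 to 0.18 in occipital tissue.

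The regional values of Tuba4a come from the arrays that singled it out, so they too are given without a test. The frontal KO minus WT difference exceeded the occipital one by 0.22 (SE 0.188). Frontal and occipital levels differed by -0.16 in WT and by 0.058 in KO tissue (SE 0.133 each), and the arrays of these regions overlapped in both genotypes.

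At E14.5 the Tuba4a groups overlapped. The KO arrays read 9.75, 8.70 and 9.25 (9.23 ± 0.53, SD, n = 3) and the WT arrays 9.22, 8.86 and 8.50 (8.86 ± 0.36). The lowest KO array lay below the median WT array. The difference was 0.37 (SE 0.306, 95% interval -0.34 to 1.09, limma adjusted p = 0.968), and 984 of 18194 genes had a larger increase. Tuba4a had 2 further probe sets of its own on this array type, with KO and WT means of 7.64 ± 0.53 and 7.38 ± 0.21 in one and of 7.03 ± 0.12 and 7.02 ± 0.092 in the other. The array types of the 2 stages differ, and Tuba4a was singled out for its P0.5 differences, so this interval cannot be set against them. The difference between stages was not tested.

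Markers of several cell types and of sex moved with genotype at P0.5. Of all genes, 4.71% rose and 2.75% fell in KO over the regions. Of 9 markers of layer 5 subcerebral neurons 7 rose, and their mean signal lay between 9.95 and 10.2 on the frontal KO arrays and between 9.55 and 9.77 on the frontal WT arrays. Of 7 layer 6 markers, 5 fell (8.58 to 8.71 on frontal KO arrays and 9.07 to 9.41 on WT arrays), and of 7 astrocyte markers, 5 rose (8.30 to 8.89 and 7.87 to 8.58). Radial glia markers rose in 5 of 8 cases, pan-neuronal markers in 3 of 7 and microglial markers in 3 of 7. Of 4 striatal markers 1 rose and 2 fell, of 6 cortical excitatory markers 1 rose and 1 fell, 1 of 8 GABAergic and 1 of 5 thalamic markers rose, and 1 of 7 blood vessel markers fell. None of 9 cell division and 5 meningeal markers was called. The mean of the 5 meningeal markers varied within some groups, from 7.22 to 9.96 on frontal WT and from 7.49 to 9.19 on frontal KO arrays. On parietal KO arrays it ran from 7.64 to 7.77. The lack of a call therefore does not show that meningeal content was even. Array signals have no true zero, so no marker was at 0. The part of these markers in the Tuba4a and Tubb4a results was not tested.

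The mean signal of the Y-linked genes was 5.39 in frontal KO and 9.04 in frontal WT tissue, 7.23 and 8.31 in parietal, and 8.35 and 9.32 in occipital tissue. Frontal KO arrays lay between 5.09 and 5.99 and frontal WT arrays between 8.99 and 9.15. Xist, the X-inactivation RNA, lay between 11.96 and 12.20 on frontal KO arrays and between 5.65 and 6.39 on frontal WT arrays. In frontal tissue genotype therefore cannot be told apart from sex or the Y-linked level. Same-numbered arrays could differ in the Y-linked mean: KO replicate 1 had 5.09 in frontal, 9.11 in parietal and 9.32 in occipital tissue. Xist read 12.2, 8.55 and 5.43 on these arrays. The frontal and occipital arrays of KO replicate 1 thus differ in sex and are not of 1 animal. In the same order of regions, the Y-linked mean also differed within KO replicate 2 (5.28, 5.42 and 9.18). It did so within KO replicate 3 (5.20, 9.05 and 5.88), KO replicate 4 (5.99, 5.36 and 9.02) and WT replicate 2 (9.02, 5.76 and 9.44). Among P0.5 arrays with a Y-linked mean above 8, a bound chosen after its values were seen, Tuba4a lay between 9.28 and 9.64 on 5 KO arrays and between 7.87 and 8.50 on 11 WT arrays. Below that bound it lay between 9.24 and 9.77 on 7 KO arrays and at 8.38 on 1 WT array. No frontal KO array was above the bound and only that 1 WT array was below it, and the part of the Y-linked level in the P0.5 differences was not tested by this split. Above the bound, Xist read 7.75 to 8.77 on occipital KO replicates 2 and 4, parietal KO replicates 1 and 3 and parietal WT replicate 3. It read 5.43 to 6.39 on the other arrays above the bound. The bound thus does not divide the arrays cleanly by sex.

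Neither of the other alpha chains measured was called in any comparison. Tuba1a read 13.74 ± 0.028 in frontal KO and 13.72 ± 0.073 in frontal WT tissue (SD, n = 4 each), and over the regions its difference was -0.019 (SE 0.0292, 95% interval -0.082 to 0.044, limma adjusted p = 0.784). Tuba8, an alpha chain also found in muscle and testis, read 7.08 ± 0.15 and 7.17 ± 0.15 in frontal tissue, with a difference over the regions of 0.0089 (95% interval -0.11 to 0.13, adjusted p = 0.954). At E14.5 Tuba1a differed by 0.0049 (SE 0.0961) and Tuba8 by 0.020 (SE 0.139).

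**Figure D2:**
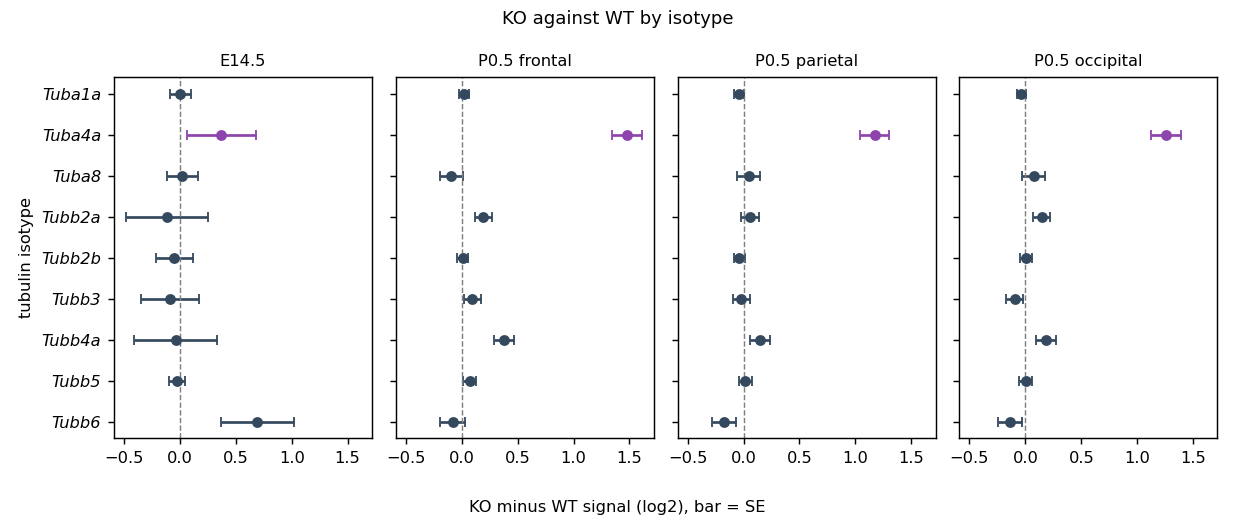
KO minus WT signal (log2, horizontal axis) of the 9 measured isotypes at E14.5 and in the 3 P0.5 regions, as points with SE bars and Tuba4a in purple. At P0.5 Tuba4a stands between 1.17 and 1.48 while the other 8 lie between -0.17 and 0.38.

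Tubb4a, a beta chain of the brain that is abundant in myelinating glia later in life, was the 1 isotype of the other 8 that passed in frontal tissue, where 7.52% of all genes were called. Its frontal KO arrays read 9.88, 9.68, 9.72 and 9.88 (9.79 ± 0.11, SD, n = 4) and its WT arrays 9.42, 9.62, 9.45 and 9.16 (9.41 ± 0.19). Every KO array lay above every WT array, as for 6.42% of all genes in that region. The rise was 0.38 (1.30-fold, SE 0.0868, limma adjusted p = 0.00698). The call was lost, with little or no change in size, when the frontal arrays alone were fitted (0.38, SE 0.0975, adjusted p = 0.0551) and once the Y-linked level was entered as a covariate (0.37, SE 0.121, adjusted p = 0.170).

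In parietal tissue Tubb4a read 9.73 ± 0.12 in KO and 9.59 ± 0.053 in WT, a difference of 0.15 (SE 0.0868, limma adjusted p = 0.703). In occipital tissue the KO arrays read 9.69, 9.35, 9.56 and 9.34 and the WT arrays 9.28, 9.34, 9.32 and 9.27. Every KO array lay above every WT array, as for 3.76% of all genes in that region, but the difference of 0.18 (SE 0.0868, adjusted p = 0.441) did not pass. In parietal tissue 0 of the 8 isotypes other than Tuba4a were called by limma, where 1.81% of all genes were called, and 0 had an unadjusted p under 0.05, beside 9.32% of all genes. In occipital tissue 0 of 8 were called, where 1.34% of all genes were, and 1, Tubb4a, had an unadjusted p under 0.05, beside 10.8% of all genes.

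Over the regions Tubb4a rose by 0.24 (1.18-fold, SE 0.0520, limma adjusted p = 0.0111), from 9.43 ± 0.066 in WT to 9.67 ± 0.083 in KO (SD over 4 values). It was the 1 called among the 8, where 7.46% of all genes were called. The call was lost without the arrays of KO replicate 1 (0.21, adjusted p = 0.0541) and with the Y-linked mean entered as a covariate (0.24, adjusted p = 0.890). The frontal difference in Tubb4a exceeded the occipital one by 0.19 (SE 0.123, adjusted p = 0.350), so no difference between regions was shown. Of 8 oligodendrocyte lineage markers, 2 rose in KO over the regions, beside 4.71% of all genes. The mean signal of the 8 was 8.27 ± 0.065 in KO and 8.24 ± 0.075 in WT frontal tissue. It was 8.28 ± 0.096 and 8.25 ± 0.096 in parietal tissue. In occipital tissue it lay between 8.27 and 8.49 on KO arrays and between 8.16 and 8.21 on WT arrays. The part of these markers in the Tubb4a values was not tested.

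**Figure D3:**
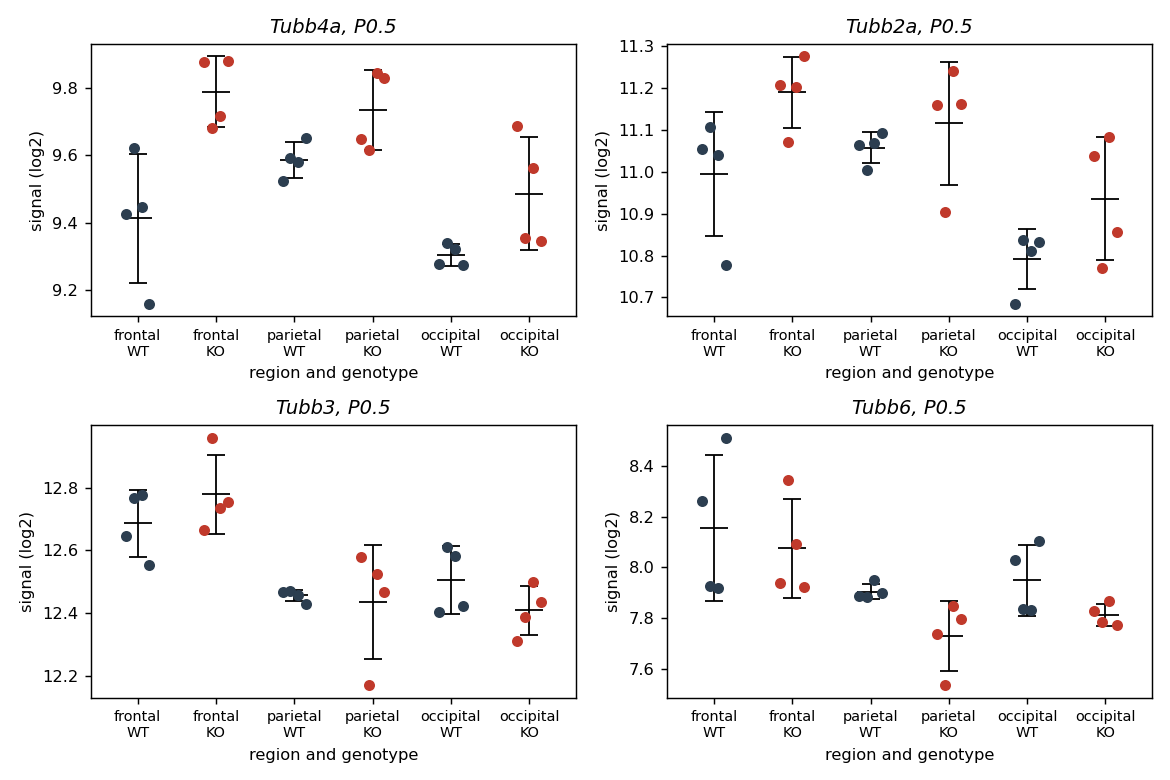
Signal (log2, vertical axis) of Tubb4a, Tubb2a, Tubb3 and Tubb6 on each P0.5 array by region and genotype, with KO arrays in red, WT arrays in dark blue, and bars for mean ± SD. The frontal Tubb4a arrays of KO (9.68 to 9.88) lie above those of WT (9.16 to 9.62), and the KO arrays of Tubb3 are higher in frontal than in occipital tissue.

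Tubb2a, a beta chain of neurons, read 11.19 ± 0.085 in KO and 10.99 ± 0.15 in WT frontal tissue, a difference of 0.19 (SE 0.0788, limma adjusted p = 0.117). Over the regions it differed by 0.13 (SE 0.0523, adjusted p = 0.170), and without the arrays of KO replicate 2 this became 0.19 and passed (adjusted p = 0.0149). Its paralog Tubb2b differed by -0.0080 over the regions (SE 0.0333, 95% interval -0.079 to 0.063). Tubb5, the beta chain of dividing progenitors as well as neurons, differed by 0.030 (SE 0.0376, 95% interval -0.051 to 0.11).

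Tubb3 was close to equal in the genotypes, with a difference of -0.0086 over the regions (SE 0.0393, 95% interval -0.093 to 0.076). Tubb6, a beta chain of many cells outside the nervous system, read 7.74, 7.54, 7.85 and 7.80 in parietal KO and 7.89, 7.88, 7.95 and 7.90 in parietal WT tissue. Each KO array lay below each WT array, as for 3.73% of all genes in that region. The difference of -0.17 (SE 0.110) did not pass (limma adjusted p = 0.752), nor did that over the regions, -0.13 (SE 0.0635, adjusted p = 0.285).

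At E14.5 0 of 18194 genes were called by limma (0%), and 1048 (5.76%) had an unadjusted p under 0.05. Of the 9 isotypes 0 were called and 0 had an unadjusted p under 0.05. Tubb6 had the largest difference among them, with 8.69, 8.25 and 7.50 in KO and 7.53, 7.74 and 7.09 in WT (8.14 ± 0.60 and 7.45 ± 0.33, SD, n = 3 each). The groups overlapped, although KO was above WT in each of the 3 same-numbered pairs, and the difference of 0.69 (1.61-fold, SE 0.328, 95% interval -0.074 to 1.46) did not pass, without the pairing (limma adjusted p = 0.874) or with it as a block (SE 0.202, adjusted p = 0.590). The other members differed by -0.12 (Tubb2a) to 0.37 (Tuba4a). The second Tubb6 probe set read 5.16 ± 0.037 in KO and 5.05 ± 0.039 in WT.

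The E14.5 arrays also varied in tissue markers. The 5 meningeal and fibroblast markers had a mean signal of 9.75, 10.1 and 8.15 on KO replicates 1 to 3 and of 7.56 to 7.74 on the WT arrays, the thalamic markers reached 7.99 on KO replicate 3 against 5.97 to 6.28 on WT arrays, and the 7 pan-neuronal markers read 7.90, 7.27 and 8.33 in KO. KO replicate 2, the lowest of the E14.5 arrays in the pan-neuronal markers, was also the lowest in Tubb2a (10.26), Tubb3 (10.53) and Tubb4a (8.56). The same array was the lowest in Tuba1a (12.91), Tuba8 (5.49), Tubb2b (11.33) and Tubb5 (13.31) too, but not in Tuba4a and Tubb6. WT arrays of Tubb2a, Tubb3 and Tubb4a read from 10.95 to 11.56, from 11.01 to 11.40 and from 9.06 to 9.61. The part of these markers in the isotype values was not tested.

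Regional gradients were small for most isotypes. Tuba4a aside, in WT tissue 0 of 8 were called between frontal and occipital brain by limma, where 6.03% of all genes were called. Tubb2a (0.20, SE 0.0788, adjusted p = 0.108) and Tubb3 (0.18, SE 0.0761, adjusted p = 0.136) had an unadjusted p under 0.05 there, as did 26.7% of all genes. Between frontal and parietal WT tissue 0 of 8 were called (0.171% of all genes were), and between parietal and occipital WT tissue also 0 of 8 (0.451% of all genes were). In each of these 2 comparisons 2 isotypes had an unadjusted p under 0.05, Tubb3 and Tubb6 in the first (12.9% of all genes did) and Tubb2a and Tubb4a in the second (7.66% did). Every frontal WT array of Tubb3 lay above every parietal one, as for 2.85% of all genes. The parietal WT arrays of Tubb2a (difference 0.27), Tubb4a (0.28) and Tubb5 (0.10) all lay above the occipital ones, as for 3.53% of all genes.

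In KO tissue Tubb3 was the 1 of these 8 isotypes called between frontal and occipital brain, where 3.22% of all genes were called. The frontal KO arrays read 12.67, 12.96, 12.74 and 12.75 (12.78 ± 0.13) and the occipital KO arrays 12.31, 12.39, 12.50 and 12.44 (12.41 ± 0.079). Every frontal array lay above every occipital array, as for Tuba1a and Tubb6 too and for 4.8% of all genes, and frontal tissue was higher by 0.37 (1.29-fold, SE 0.0761, limma adjusted p = 0.00457). Tubb4a (0.30, SE 0.0868, adjusted p = 0.0520) and Tubb2a (0.25, SE 0.0788, adjusted p = 0.0808) did not pass in the same comparison. An unadjusted p under 0.05 was found for 6 of the 8 (Tuba1a, Tubb2a, Tubb3, Tubb4a, Tubb5 and Tubb6), all higher in frontal tissue, beside 2883 of 19938 genes. The Y-linked mean was 5.09 to 5.99 on the frontal KO arrays and 9.32, 9.18, 5.88 and 9.02 on the occipital ones. This comparison therefore does not separate region from that level. The WT gradient of 0.18 did not pass, and the KO gradient exceeded it by 0.19 (SE 0.108, adjusted p = 0.305), so the gradients were not shown to differ. None of the 8 passed the test of that difference, by which 0.416% of all genes were called, and 0 of 8 had an unadjusted p under 0.05, beside 20.1% of all genes.

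The interval before the annotated start is shown for Tuba4a, the isotype with the large difference, for Tubb4a, which also rose, and for Tubb5, the only matched member with a T-box core, since Tbr1 is a T-box protein. RefSeq promoter windows (GRCm38.p6) matched 8 of the 10 members, not Tubb2b and Tubb6. Each sequence is the 250 bases before the start on the gene's own strand, 5′ to 3′, with the core TCACAC or its reverse complement GTGTGA in capitals. Tuba4a is at chr1:75219295-75219544 on the minus strand, Tubb4a at chr17:57087601-57087850 on the minus strand, and Tubb5 at chr17:35838302-35838551 on the minus strand.
Tuba4a: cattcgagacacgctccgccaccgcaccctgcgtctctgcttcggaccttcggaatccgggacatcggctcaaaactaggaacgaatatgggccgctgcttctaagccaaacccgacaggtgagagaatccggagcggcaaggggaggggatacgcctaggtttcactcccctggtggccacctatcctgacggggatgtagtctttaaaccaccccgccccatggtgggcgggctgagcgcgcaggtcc
Tubb4a: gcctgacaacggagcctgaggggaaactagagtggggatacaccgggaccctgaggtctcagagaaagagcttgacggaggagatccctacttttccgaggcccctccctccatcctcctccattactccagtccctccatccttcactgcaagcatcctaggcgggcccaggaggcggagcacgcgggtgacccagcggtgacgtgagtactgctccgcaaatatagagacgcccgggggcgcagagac
Tubb5: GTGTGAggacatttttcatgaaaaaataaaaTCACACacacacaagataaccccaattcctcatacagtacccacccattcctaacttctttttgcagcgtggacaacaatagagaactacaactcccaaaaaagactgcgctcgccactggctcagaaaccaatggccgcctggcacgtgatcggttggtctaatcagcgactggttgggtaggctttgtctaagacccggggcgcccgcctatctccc
The core was found in 12.3% of 32851 windows of this length. Tubb5 had 2 matches, starting 250 and 219 bases before its start, and the second runs on into a repeat of CA. No match was found in the windows of Tuba4a and Tubb4a, which says only that these letters are not in them. The annotated Tuba4a gene begins further upstream than this start, so its window lies within the gene. The GC share of the 8 windows ranged from 49.2% to 75.6%.

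Genes next to Tuba4a on chromosome 1 were read to see whether its increase extended to its neighbours. In RefSeq order the measured genes were Abcb6, Atg9a, Ankzf1, Glb1l and Stk16 on one side and Dnajb2, Ptprn, Resp18, Dnpep and Des on the other. Ptprn, a protein of the membrane of dense-core vesicles, rose in KO in all 3 regions. In frontal tissue its KO arrays read 10.06, 9.53, 10.09 and 9.91 and its WT arrays 8.41, 8.71, 8.59 and 8.20. Each Ptprn array of KO lay above each of WT, as for 6.42% of all genes, and the rise was 1.42 (SE 0.119, limma adjusted p = 1.36e-08).

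Ptprn rose by 0.94 in parietal and by 0.88 in occipital tissue, and by 1.08 over the regions. In frontal tissue Abcb6, a mitochondrial ABC transporter, also rose (0.57, SE 0.109, limma adjusted p = 0.00139), as did Dnajb2, a neuronal co-chaperone (0.22, SE 0.0640, adjusted p = 0.0309). Of all genes, 4.7% were called higher there. Abcb6 (0.013 and 0.054) and Dnajb2 (0.082 and 0.070) were not called in parietal and occipital tissue. Atg9a, Ankzf1, Glb1l, Resp18, Dnpep and Des were called in no region. The gene nearest to Tuba4a, Stk16, whose annotated span overlaps that of Tuba4a, differed by 0.19 in frontal, -0.16 in parietal and -0.10 in occipital tissue and passed in none of them. In parietal tissue each Stk16 array of KO lay below each of WT, as for 3.73% of all genes there.

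**Figure D4:**
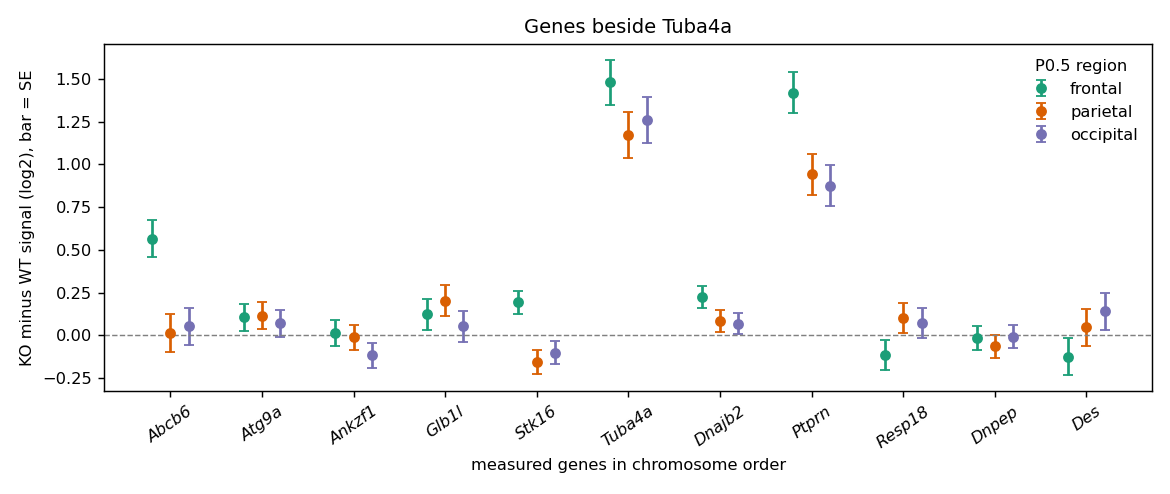
KO minus WT signal (log2, vertical axis, points with SE bars) of Tuba4a and the measured genes beside it in chromosome order, by P0.5 region. Tuba4a lies between 1.17 and 1.48 and Ptprn between 0.88 and 1.42, while Stk16 lies between -0.16 and 0.19.

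Over the 24 P0.5 arrays, which share the KO against WT difference, the genes with the highest Pearson correlation with Tuba4a were Slc4a10 (0.942), a sodium-coupled bicarbonate transporter, Nefm (0.941), the medium neurofilament chain, D130043K22Rik (0.938), Sorcs3 (0.925), a sorting receptor, and Mro (0.923). Tubb4a was the closest isotype with 0.575, at rank 803 of all genes. Tubb2a had 0.414, Tubb6 -0.308 and Tuba1a -0.170. The Slc4a10 signal lay between 10.7 and 10.9 in frontal KO and between 9.59 and 9.81 in frontal WT tissue.

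Other genes of the microtubule system were read as lists of 118 genes in 7 groups, of which 112 were measured at P0.5. Over the regions 8 rose (7.14%) and 2 fell (1.79%) in KO, beside 4.71% and 2.75% of all genes, and the median difference was 0.025. Among tubulin modifying enzymes, Agbl4, a deglutamylase that shortens glutamate side chains, rose by 0.38 (SE 0.0596, limma adjusted p = 0.00100), and Ttll7, a polyglutamylase acting mostly on beta-tubulin, rose by 0.35 (SE 0.0664, adjusted p = 0.00389). Agtpbp1, another deglutamylase, fell by 0.23 (SE 0.0589, adjusted p = 0.0297).

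Among stabilising and regulating proteins 3 of 29 rose: Mapre3, which binds growing plus ends (0.34, SE 0.0462, limma adjusted p = 2.79e-04), Map1a, which coats microtubules of mature neurites (0.33, SE 0.0707), and Map7d2, which helps recruit kinesin (0.24, SE 0.0611). Of 19 axonal transport motor genes, the kinesins Kif1a (0.21), Kif21a (0.16) and Kif1b (0.14) rose, and Dync1i1, a dynein intermediate chain, fell by 0.28 (SE 0.0601, adjusted p = 0.00944). None of the 8 other tubulins, 18 folding cofactors, 6 severing and 14 nucleation genes measured was called over the regions. The other tubulins, among them the gamma-tubulins, differed by -0.17 to 0.13.

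**Figure D5:**
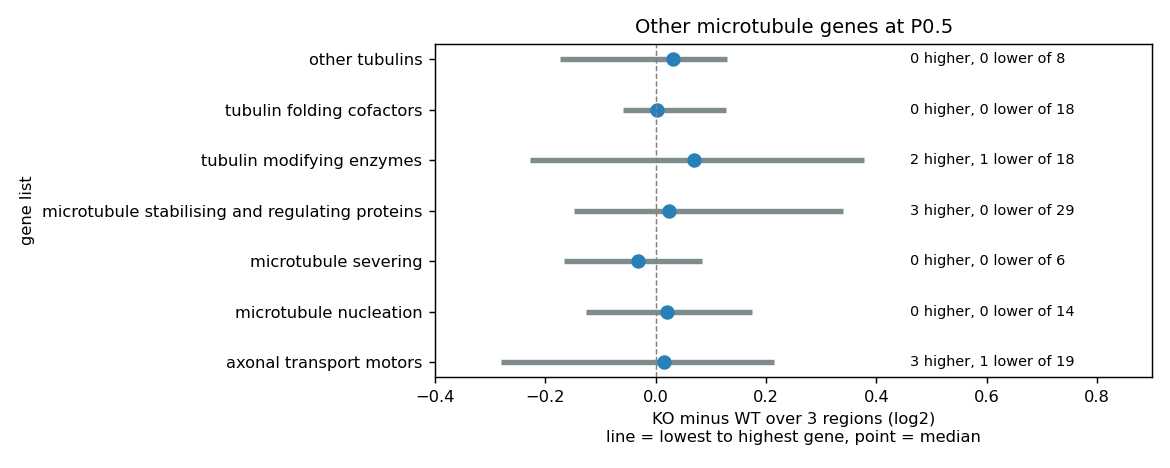
KO minus WT signal over the 3 P0.5 regions (log2, horizontal axis) for 7 lists of other microtubule genes, with the lowest to highest gene as a line, the median as a point and the number called higher and lower beside it. All medians lie between -0.031 and 0.069, and the genes called belong to the modifying enzymes, the stabilising proteins and the motors.

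By region the calls were mostly frontal. In frontal tissue 9 of 112 rose (8.04%, beside 4.7% of all genes) and 0 fell (beside 2.81%). Among the 9 were Mapre3 (0.54), Ttll7 (0.48), Agbl4 (0.45) and the prefoldin subunit Pfdn1 (0.34), which acts in tubulin folding. In parietal tissue Agbl4 rose (0.51, SE 0.0825, limma adjusted p = 5.13e-04) and in occipital tissue Dync1i1 fell by 0.43 (SE 0.103, adjusted p = 0.0273), and no other gene of the lists was called in either. These were 0.893% of the genes measured in each, beside 1.06% of all genes higher and 0.747% lower in parietal tissue and 0.762% higher and 0.577% lower in occipital tissue. At E14.5, 0 of 111 measured were called by limma.

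The neurofilament chains, the other filaments of the axon, were read beside the tubulins. Of 5 measured, Nefm (1.36, SE 0.0604), Nefl (1.31, SE 0.0608) and Prph (0.24, SE 0.0502) rose over the regions, beside 4.71% of all genes called higher. In frontal tissue Nefm rose by 1.70 and Nefl by 1.54, beside the Tuba4a difference of 1.48.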

How the data were processed

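RNA from 6 E14.5 and 24 P0.5 arrays was measured on Affymetrix microarrays. The authors deposited log2 signals per probe set, and Affymetrix Expression Console 1.1 and RMA are named in the submitters' processing notes without their roles. They were not normalised again. The E14.5 probe sets bear names of an older 3' array type, although the labels' protocol gives the Gene 1.0 ST array throughout. Such signals are relative, and the number of arrays limits their precision. Only probe sets that name a single gene were used, with the highest mean deciding between those of 1 gene, which left 18194 genes in the E14.5 table and 19938 in the P0.5 table. No data column was without a sample.

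Tests, all with both tails, were run with limma 3.58.1 under R 4.3.3 (empirical Bayes, with the trend on intensity), with the 24 P0.5 arrays as 6 groups. For values over the regions, each genotype's 3 arrays with the same number were first averaged. The p-values over the regions thus measure the spread of these averages, whose arrays are not always of the same animal. The script was tested on simulated data. P0.5 values of Tuba4a are given without a test. The members, lists and the rule for named genes (all members, up to 4 genes of each microtubule list by p, 5 neighbours on each side and the 5 genes most like Tuba4a) were chosen with earlier results of these data known. Named beyond the rule were Tbr1 and marker lists. Alternatives were averaging all probe sets of a gene, dropping the dimmest 30%, centring arrays on their medians, no trend, array weights, a replicate block, other sets of arrays, the Y-linked mean as a covariate, and leaving out each array.

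Same-numbered arrays correlated in their residuals at 0.125 to 0.445 for E14.5 KO and WT and at 0.124 to 0.276 for parietal and occipital WT, so the number may pair them there. The fits reported used no pairing in any comparison. It was entered only as the replicate block among the alternatives. In the other comparisons at least 1 pair lay under 0.1 (lowest -0.471).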

Additional observations from a re-analysis of the deposited data

Results flagged for a closer look

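In occipital WT tissue Tubb2a stood lower on replicate 1 (10.68) than on the other 3 arrays (10.81 to 10.84), a gap of 0.83 of the range of the group. It was the 1 such case among 54 groups of 4 arrays examined, and chance marks about 1 in 20 groups.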

How the results depend on the processing

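No called isotype changed sign, and the isotype differences that changed sign under any alternative (96 of 1485 values) were uncalled. Their size in the fit reported was at most 0.12, and with the other sign they reached 0.36 (Tubb4a at E14.5). The counts of called isotypes moved as follows, with causes not tested. In frontal KO against WT the count went from 1 to 0 with only the arrays compared and with the Y-linked covariate, and over the regions from 1 to 0 with that covariate. With it Tuba4a over the regions was 1.51. Leaving out arrays gave 0 to 2 over the regions, 0 to 1 for WT frontal against occipital (1, Tubb2a, without frontal WT replicate 4, adjusted p = 0.0496) and 1 to 2 for KO frontal against occipital (2 without frontal KO replicate 2 or occipital KO replicate 1). Array weights gave 1 in WT frontal against occipital (Tubb2a), 1 in WT frontal against parietal (Tubb3), 2 in WT parietal against occipital (Tubb2a and Tubb4a) and 3 in KO frontal against occipital. Only the arrays compared gave 2 in WT parietal against occipital, and leaving out dim genes or subtracting medians gave 2 in KO frontal against occipital. The replicate block changed no count of called isotypes (0 at E14.5, 1 in frontal tissue and 1 over the regions), and Tuba4a at E14.5 had adjusted p = 0.731 with it. Other settings kept the counts. Genes called in all ranged over the alternatives from 247 to 2606 in frontal (main 1499), 237 to 1241 in parietal (361), 122 to 664 in occipital (267) tissue, 71 to 1894 over the regions (1488), 287 to 1917 (1202), 24 to 134 (34) and 46 to 452 (90) in the WT comparisons in the order above, 247 to 1549 (643) in KO frontal against occipital, 12 to 530 (83) for the difference of gradients and 0 to 30 (0) at E14.5. Signals near background compress differences, and 3 or 4 arrays per group limit what can be detected.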

Other observations

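Tuba1b, the alpha chain of dividing and many other cells, was seen only by probe sets that also name other genes, which lie outside the rule of the comparisons. At E14.5 a probe set shared with Gm5620 had a mean of 13.47 ± 0.018 on the 3 KO arrays and 13.44 ± 0.11 on the 3 WT arrays. At P0.5 a probe set shared with Tuba1c had a mean of 13.14 ± 0.080 in KO and 13.11 ± 0.11 in WT frontal tissue (SD over 4 arrays), and the KO minus WT differences of this probe set were 0.021 in frontal, 0.010 in parietal and 0.0044 in occipital tissue. These signals belong to no single gene, so they give no value for Tuba1b itself.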
